A study of Mus musculus with 2 samples.

Results

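The results below compare 2 blocks of hashtagged lung suspensions from silica-exposed CCR2KO mice. A hashtag is an antibody-borne barcode that marks the cells of 1 suspension before suspensions are pooled. The second block was the 3 hashtags A0304, A0305 and A0306, and the third block was the 2 hashtags A0307 and A0308. Members were taken from the names of the cell columns, and a cell was kept if it had 200 or more detected genes and no more than 25% mitochondrial reads. This left 9402 cells of 9863 tagged in these 5 suspensions, against 15955 tagged CCR2KO cells and 33809 tagged cells in the whole series.

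The study gave silica by intratracheal instillation at 400 mg/kg to C57BL/6 mice, wild type (WT) or CCR2-/- (CCR2KO), and profiled whole lung by single-cell RNA sequencing. Lungs were taken on days 3, 7 and 21 and digested with Liberase, cells were recovered from a Percoll layer, and 20000 cells of each genotype were loaded on 1 BD Rhapsody cartridge after hashtagging. The labels pool the 3 days within a genotype and assign no day to a hashtag, so the blocks are called only by their position in the hashtag numbering. Both blocks share the genotype, the instillation, the cartridge and the 1 sequencing library; the age of the mice and an untreated lung were not given in the labels. The labels do not say that a hashtag is 1 animal, so every p-value here measures the spread between tagged suspensions.

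Inhaled silica is taken up by lung macrophages, where it damages lysosomes and drives inflammasome signalling, and in time it causes nodular fibrosis. Circulating monocytes use the chemokine receptor CCR2 to enter injured tissue, where some become macrophages that express Spp1, Gpnmb, Trem2 and lysosomal proteases and lie beside scar-forming fibroblasts. Activated fibroblasts lay down collagen, while alveolar type 2 cells, which make surfactant, divide and give rise to the flat alveolar type 1 cells across which gas is exchanged.

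The 5 suspensions held 1654 to 2100 kept cells and 55677280 to 86747967 reads each. Median reads per cell were 21821, 22960.5 and 24781 in the second block and 20394 and 20849 in the third. Median genes per cell were 908, 927.5 and 981 against 852.5 and 877, and 663.5, 672.5 and 706 against 636 and 652.5 when each cell was thinned to 5000 reads. The third block was thus lower in both measures without overlap, and its median share of mitochondrial reads was higher (7.10% and 6.79%, against 6.61% to 6.74%). The part of these differences in the results was not tested, except that the thinned cells were analysed again. Pearson correlations of log2 CPM (reads per 1000000 reads of a suspension) over 10566 genes, given as a description, were 0.980 among second-block suspensions, 0.973 between the third-block pair and 0.956 to 0.968 across blocks. Ccr2 was at 1.78, 4.36 and 2.66 CPM in the second block and 2.17 and 2.74 CPM in the third, and reads outside the deleted part of the gene, if any, are counted here too.

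Cells were assigned to 27 classes by fixed marker genes, a class being called where at least 3 of its markers were positive at 2 or more reads per 10000 of the cell. Of 24 classes with at least 20 cells, 8 (33.3%) differed in their share of kept cells between the blocks at an adjusted p under 0.05 in edgeR's quasi-likelihood test, 6 lower and 2 higher in the third block. The classes that fell were activated fibroblasts, scar-type macrophages, lymphatic endothelium, T cells, mature dendritic cells and interstitial macrophages. Alveolar type 1 cells and alveolar fibroblasts rose. With 3 against 2 suspensions an exact permutation test cannot go below p = 0.1, and the shares of one class bear on those of the others.

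Activated fibroblasts, gated on Grem1, Sfrp1, Tnc and other genes of matrix-producing stroma, made up 3.14%, 3.39% and 3.77% of cells in the second block and 0.665% and 0.328% in the third. All 3 second-block suspensions lay far above both third-block ones. The mean share was 3.44% ± 0.316 (SD, n = 3) against 0.496% ± 0.239 (SD, n = 2), 6.92-fold higher in the second block (edgeR log2 difference -2.80, SE 0.29, adjusted p = 0.000798). This class passed in all 5 tests that left out 1 suspension. Alveolar fibroblasts, which support alveolar type 2 cells, went the other way. Their share was 4.67%, 3.77% and 5.03% in the second block and 8.77% and 6.23% in the third, without overlap (log2 0.73, SE 0.21, edgeR adjusted p = 0.0339). That call held in 2 of the 5 tests that left out 1 suspension and was lost without second block replicate 1 (log2 0.76), second block replicate 2 (0.62) or the third block's replicate 1 (0.47). Adventitial fibroblasts, which surround vessels and airways, had 2.35% ± 0.458 (SD, n = 3) and 2.56% ± 0.833 (SD, n = 2) and did not pass (edgeR adjusted p = 0.829).

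Scar-type macrophages, gated on Spp1, Gpnmb, Mmp12, Trem2 and related genes, were 1.38%, 1.81% and 1.76% of cells in the second block and 0.181% and 0.382% in the third. The groups did not overlap, and the third-block suspensions held only 3 and 7 such cells against 29, 33 and 35. The mean share was 5.85-fold higher in the second block (log2 difference -2.49, SE 0.36, edgeR adjusted p = 0.00272), and the class passed in all 5 tests that left out 1 suspension. Interstitial macrophages, the resident macrophages of the lung's connective tissue, had 1.48%, 2.13% and 2.61% against 1.15% and 0.874% (log2 -1.03, SE 0.32, edgeR adjusted p = 0.0443). They passed in only 1 of the 5 tests that left out 1 suspension, the one without second block replicate 1, with log2 differences from -1.24 to -0.83. Alveolar macrophages, which patrol the airspace, made up 1.88% ± 0.276 (SD, n = 3) and 1.97% ± 0.386 (SD, n = 2), with overlapping suspensions (edgeR adjusted p = 0.829). Neutrophils had 5.41% ± 1.67 (SD, n = 3) and 4.79% ± 0.0211 (SD, n = 2), and classical monocytes, the cells whose exit from bone marrow needs CCR2, had 0.791% ± 0.0739 (SD, n = 3) and 0.660% ± 0.00684 (SD, n = 2). Neither passed (edgeR adjusted p = 0.674 and 0.652).

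T cells were 2.52%, 3.28% and 3.12% of cells in the second block and 1.15% and 1.37% in the third, again without overlap. Their mean share was 2.37-fold higher in the second block (log2 difference -1.23, SE 0.22, edgeR adjusted p = 0.00715), and the call was lost in 1 of 5 tests that left out 1 suspension, the one without the third block's replicate 1 (log2 -1.12, edgeR adjusted p = 0.0625). Mature dendritic cells, which carry antigen to lymph nodes, were 0.952%, 0.821% and 0.704% against 0.423% and 0.273% (log2 -1.25, SE 0.34, edgeR adjusted p = 0.0339), passing in 1 of 5 such tests, the one without second block replicate 3, with log2 differences from -1.58 to -0.96. B cells had 2.81%, 2.02% and 1.81% against 2.06% and 3.28%, so the blocks overlapped (edgeR adjusted p = 0.578). Natural killer cells overlapped too, with means of 1.07% and 1.32%.

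Alveolar type 1 cells were 1.86%, 1.04% and 1.41% of cells in the second block and 2.84% and 2.57% in the third. Both third-block suspensions lay above the 3 others (log2 difference 0.90, SE 0.25, edgeR adjusted p = 0.0339), and the call held in 2 of the 5 tests that left out 1 suspension, those without second block replicate 1 or 3, with log2 differences from 0.72 to 1.13. Alveolar type 2 cells were 9.19%, 10.1% and 7.29% against 11.9% and 12.5%, without overlap but short of the threshold (log2 0.46, edgeR adjusted p = 0.0764). All epithelial classes together made up 11.4% ± 1.09 (SD, n = 3) and 16.5% ± 0.360 (SD, n = 2), with the smallest exact permutation p that 3 against 2 allows, 0.1. When shares were taken only over cells placed in 1 class, the calls for alveolar type 1 cells and alveolar fibroblasts were lost (edgeR adjusted p = 0.0511 for each), while the 6 falls passed.

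Lymphatic endothelium, which drains fluid and immune cells, was 1.14%, 1.15% and 1.11% of cells in the second block and 0.484% and 0.328% in the third (log2 difference -1.48, SE 0.29, edgeR adjusted p = 0.00823). The second-block suspensions were nearly equal and all above the third. Over all cells 5 of the 6 markers of this class lay below 0 (median log2 difference -0.27), but none was called lower by edgeR. Of the 6, 2 (Ccl21a and Mmrn1) lay below without overlap, against 15.6% of all tested genes. Ccl21a, the chemokine that guides dendritic cells into lymph vessels, had 168, 134 and 124 CPM against 98.3 and 60.8 CPM (log2 -0.84, edgeR adjusted p = 0.1604). Lyve1, a hyaluronan receptor, was higher in the third block, at 196, 197 and 177 CPM against 326 and 316 CPM (log2 0.76, edgeR adjusted p = 0.0242). Prox1, the lineage's defining transcription factor, was at 6.42, 7.41 and 4.37 CPM against 7.12 and 3.03 CPM (adjusted p = 0.872 by edgeR). With 2 positive markers in place of 3, the share also missed the threshold (log2 -0.70, edgeR adjusted p = 0.113). General capillary endothelium was 7.33%, 8.42% and 7.94% against 10.2% and 9.18% (edgeR adjusted p = 0.173).

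**Figure D1:**
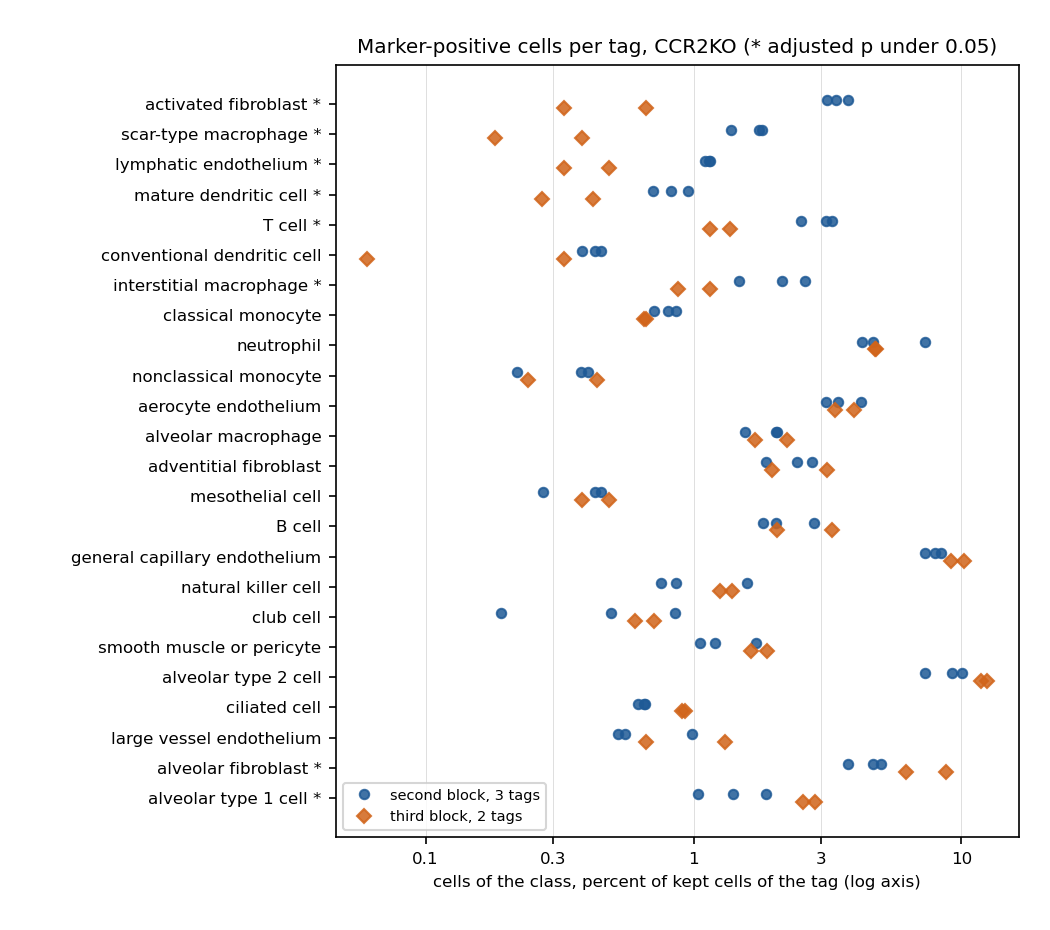
Share of kept cells (percent, log axis) of each tested cell class in the 3 second-block and 2 third-block suspensions, 1 point per suspension, with an asterisk where the edgeR adjusted p was under 0.05. Activated fibroblasts (3.14% to 3.77% against 0.328% and 0.665%) and scar-type macrophages (1.38% to 1.81% against 0.181% and 0.382%) show the widest gaps.

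Reads were then summed over all kept cells of each suspension. Of 20085 genes tested, 104 (0.518%) differed between the blocks at an adjusted p under 0.05 in edgeR, 47 higher (0.234%) and 57 lower (0.284%) in the third block, and 2747 had an unadjusted p under 0.05. The median log2 difference over all tested genes was near 0, at -0.0004. Suspensions of the third block lay wholly above those of the second for 2999 genes (14.9%) and wholly below for 3140 (15.6%). The number of calls rested on all 5 suspensions: it was 78 without second block replicate 1, 0 without second block replicate 2, 12 without second block replicate 3, 1 without the third block's replicate 1 and 0 without the third block's replicate 2. Of the 78 genes 55 were among the 104, and of the 12 genes 6 were. The 30 genes with the largest called changes were picked from called genes whose suspensions did not overlap between the blocks. Their separation, here and below, is thus part of the choice, and leaving out 1 suspension could hardly reverse it. All 30 kept their direction in the 5 tests, but 11 passed in 0 of them and 15 in only 1. The other 4, Grem1, Lmo7, Mdk and Nrep, passed in 2. With each cell thinned to 5000 reads, 118 genes were called, of which 51 were among the 104. Of the 30 genes, 15 passed with thinned cells; C3ar1, Cldn18, Col12a1, Ereg, Gprc5a, Grem1, Gsta3, Kank3, Lmo7, Mal, Ms4a7, Myh14, S100a14, Slc6a14 and Trem2 kept their direction without passing. Of the list genes described below, Col6a3, Fn1, Igf1, Itgax, Mmp8, Mt2, Sfrp1 and Sftpb also lost their call, Mmp8 with a log2 difference of -0.12 and Col6a3 of -0.25. In sums over mixed cells, fewer cells of a type and less RNA per cell cannot be told apart, and the gates for scar-type macrophages and activated fibroblasts use some of the genes described next.

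Each gene was given the lineage that held the largest part of its reads among cells placed in 1 class. Reads in all other cells were left out, among them 49.0% of Cxcl9 reads in the second block. The genes that fell were led by myeloid cells more often than genes in general. Of the 57 lower genes, 38 (66.7%) were led by myeloid and 16 (28.1%) by mesenchymal cells, against 27.7% and 30.2% of all tested genes. Of the 47 higher genes, 22 (46.8%) were led by epithelial and 17 (36.2%) by endothelial cells, against 29.8% and 9.19% of all tested genes. None of the 57 lower genes was led by epithelial cells and none of the 47 higher genes by myeloid cells.

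Of the 22 tested genes of the list for lipid-associated and scar macrophages, 9 fell and 1 rose, with a median log2 difference of -0.92. For this and every list below, the shares over all tested genes were 0.284% called lower and 0.234% called higher. Spp1, which encodes osteopontin, a secreted matrix and adhesion protein, stood at 3883, 5987 and 5018 CPM in the second block and 917 and 1310 CPM in the third. Every second-block suspension was above both third-block ones, a 4.46-fold difference of means (log2 -2.16, SE 0.21, edgeR adjusted p = 0.0240). Gpnmb, a transmembrane glycoprotein of lysosome-rich macrophages, had 170, 216 and 198 CPM against 48.0 and 63.9 CPM (log2 -1.80, SE 0.16, adjusted p = 0.0195). Mmp12, macrophage elastase, had 102, 74.8 and 86.3 CPM against 26.8 and 17.0 CPM (log2 -2.01, SE 0.23, adjusted p = 0.0287). Trem2, a lipid-sensing receptor of macrophages, had 53.5, 79.1 and 80.9 CPM against 24.3 and 22.9 CPM (log2 -1.59, adjusted p = 0.0346). Itgax, which encodes the integrin CD11c, and Cd63, a tetraspanin of late endosomes, also fell (log2 -1.04 and -0.40). Cd36, a scavenger receptor that endothelium also makes, was the 1 member that rose, from 509, 544 and 524 CPM to 737 and 796 CPM (log2 0.54, adjusted p = 0.0297). Fabp5, a fatty acid carrier, had 779, 1085 and 745 CPM against 370 and 459 CPM and just missed the threshold (edgeR adjusted p = 0.0565), and Apoe, the lipid carrier, overlapped between blocks (adjusted p = 0.413).

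Several cathepsins, the proteases of lysosomes, were called, most of them lower. Ctsd, the aspartic protease cathepsin D, was at 2332, 3193 and 2858 CPM in the second block and 948 and 1202 CPM in the third (log2 difference -1.38, SE 0.15, edgeR adjusted p = 0.0242). Ctsk, a cysteine protease that cleaves collagen, had 706, 889 and 794 CPM against 283 and 363 CPM (log2 -1.30, adjusted p = 0.0240). Ctsb and Ctss, further cysteine cathepsins, fell by 0.90 and 1.10 on the log2 scale (adjusted p = 0.0207 and 0.0260). The suspensions of the 2 blocks were apart for each of these 4 genes. Ctsh, a cathepsin that alveolar type 2 cells also make, went the other way, at 377, 375 and 327 CPM against 553 and 536 CPM (log2 0.60, edgeR adjusted p = 0.0380). Lysosomal genes that no naming rule covered, and that were picked after their values were seen, include Psap, the precursor of the saposins that help degrade sphingolipids, at 1830, 2087 and 1991 CPM against 851 and 1015 CPM (log2 -1.08, adjusted p = 0.0148). Pld3 (log2 -1.14), Hexa (log2 -0.94), Ctsa (log2 -0.80), Pla2g15 (log2 -0.76) and Creg1 (log2 -0.69) were also called lower by edgeR.

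Many lysosomal genes are known to be driven through a promoter element with the core CACGTG, which is read by the transcription factor TFEB and its relatives. The promoters of Ctsd and Ctsa are shown because both genes fell and both carry this core, in capitals, in the 250 bases before the annotated start (RefSeq, GRCm38.p6, 5′ to 3′ on the gene's strand). The Ctsd stretch is chr7:142387828-142388077 on the minus strand, and the Ctsa stretch is chr2:164833523-164833772 on the plus strand.
Ctsd: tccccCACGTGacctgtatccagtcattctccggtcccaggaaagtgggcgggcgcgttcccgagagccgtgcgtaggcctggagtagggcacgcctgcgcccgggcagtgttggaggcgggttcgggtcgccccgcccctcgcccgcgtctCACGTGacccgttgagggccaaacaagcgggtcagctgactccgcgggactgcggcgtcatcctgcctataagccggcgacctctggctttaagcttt
Ctsa: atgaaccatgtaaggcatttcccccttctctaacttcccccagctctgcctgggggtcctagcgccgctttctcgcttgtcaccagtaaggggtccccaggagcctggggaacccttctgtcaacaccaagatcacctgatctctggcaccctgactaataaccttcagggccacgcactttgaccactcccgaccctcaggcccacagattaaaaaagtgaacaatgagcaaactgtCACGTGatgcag
The core reads the same on both strands, so 1 search covers both. In windows from 250 bases before to 50 after the start it was found in 5 of the 41 matched lower genes (12.2%, Ass1, Ctsa, Ctsd, Prnd and Sgk1) and in 1 of the 36 matched higher genes (2.78%, Aqp5). The same windows held it in 10.5% of 14391 matched tested genes and in 8.09% of all 27025 genes with a promoter sequence. The share among the lower genes was thus near that of all tested genes, and a match is a description of the letters only.

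Of 14 tested complement genes 3 fell, and the list's median log2 difference was 0.0001. C1qb, a chain of the first complement component, had 99.5, 141 and 150 CPM in the second block and 52.3 and 46.2 CPM in the third (log2 -1.40, edgeR adjusted p = 0.0366). C1qc, its partner chain, and C3ar1, the receptor for the C3a fragment, fell by 1.36 and 1.73 on the log2 scale. Ms4a7, a membrane protein of tissue macrophages, had 24.1, 30.8 and 35.8 CPM against 10.3 and 8.34 CPM (log2 -1.70, adjusted p = 0.0366). All 4 genes had non-overlapping suspensions, a condition of the choice for C1qb, C3ar1 and Ms4a7.

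Among secreted signals, Cxcl9, the interferon-gamma-induced chemokine that draws T cells, had the largest called fall among genes with a mean of at least 20 CPM. It had 17.5, 32.4 and 47.0 CPM in the second block and 1.22 and 2.65 CPM in the third (log2 -4.05, SE 0.54, edgeR adjusted p = 0.0366), with 38, 44 and 43 cells holding a read against 13 and 21. It was the only 1 of 19 genes called in the list of interferon gamma and MHC class I, whose median was -0.33. Ereg, an EGF receptor ligand, had 80.5, 66.3 and 52.1 CPM against 22.7 and 25.4 CPM (log2 -1.46, adjusted p = 0.0366). Il1f9, an interleukin-1 family cytokine, had 41.9, 63.4 and 55.0 CPM against 21.4 and 19.7 CPM (log2 -1.38, adjusted p = 0.0430). Osm, an interleukin-6 family cytokine, had 61.8, 83.9 and 82.9 CPM against 28.5 and 33.9 CPM (log2 -1.29, adjusted p = 0.0366). All 4 ligands were lower in both third-block suspensions than in any second-block one, which the choice of Cxcl9, Ereg and Il1f9 required.

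Single chemokines of monocytes and macrophages did not pass. Ccl2, the main ligand of CCR2, the receptor missing in these mice, was at 376, 371 and 427 CPM in the second block and 319 and 268 CPM in the third (log2 -0.41, edgeR adjusted p = 0.144). Ccl6, a macrophage chemokine, had 1552, 2171 and 1716 CPM against 681 and 952 CPM (log2 -1.15, edgeR adjusted p = 0.0514). Ccl12, a further CCR2 ligand, had 64.5, 77.5 and 94.0 CPM against 32.3 and 45.2 CPM (log2 -1.02, edgeR adjusted p = 0.0900). For all 3 genes both third-block suspensions lay below every second-block one, as they did for 15.6% of all tested genes.

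Matrix genes of fibroblasts fell in part. Of 28 tested collagens and matrix genes 3 fell and none rose (median log2 difference -0.31), and 13 lay below without overlap, against 15.6% of all tested genes. Col1a1, a chain of type I collagen, was at 1567, 1342 and 1335 CPM in the second block and 839 and 605 CPM in the third (log2 -0.97, edgeR adjusted p = 0.0457). Fn1, fibronectin, had 1133, 1179 and 1177 CPM against 774 and 677 CPM (log2 -0.68, adjusted p = 0.0240). Col6a3, a chain of type VI collagen, fell by 0.64 on the log2 scale. Col1a2, the partner chain of Col1a1, had 1635, 1432 and 1576 CPM against 1106 and 811 CPM and missed the threshold (log2 -0.69, edgeR adjusted p = 0.0751). Col3a1, type III collagen, overlapped between blocks, at 1593, 1502 and 1661 CPM against 1548 and 1185 CPM (adjusted p = 0.462). Col12a1, a collagen that coats fibrils and no member of the list, had 74.7, 69.0 and 56.1 CPM against 26.3 and 20.6 CPM (log2 -1.51, adjusted p = 0.0297).

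Further genes with reads in stroma were called lower. Grem1, a secreted blocker of bone morphogenetic proteins, was at 47.7, 31.2 and 24.6 CPM in the second block and 2.29 and 3.90 CPM in the third, an 11.1-fold difference of means (log2 -3.47, SE 0.38, edgeR adjusted p = 0.0250). Reads of it were found in 74, 64 and 63 cells against 9 and 22. Sfrp1, a secreted WNT binder, had 295, 292 and 328 CPM against 188 and 158 CPM (log2 -0.82, adjusted p = 0.0346). Grem1 and Sfrp1 were the 2 members called in the list of contractile myofibroblasts (15 tested, median -0.26) and in that of WNT and BMP in stroma (21 tested, median 0.0039). Acta2, smooth muscle actin and the textbook myofibroblast marker, had 706, 478 and 539 CPM against 453 and 404 CPM and did not pass (log2 -0.42, edgeR adjusted p = 0.304). Nrep, a regenerating-tissue protein, had 275, 335 and 293 CPM against 110 and 96.6 CPM (log2 -1.54, SE 0.12, adjusted p = 0.0110). Mdk, the heparin-binding growth factor midkine, had 75.7, 85.2 and 78.4 CPM against 25.0 and 26.3 CPM (log2 -1.63, SE 0.12, adjusted p = 0.0110). Igf1, insulin-like growth factor 1, had 283, 266 and 295 CPM against 187 and 181 CPM (log2 -0.61, adjusted p = 0.0366). Tgfb1, the central fibrosis cytokine, had 83.1, 79.7 and 77.4 CPM against 51.4 and 56.2 CPM (log2 -0.57, edgeR adjusted p = 0.0738). None of the 21 genes of the TGF-beta and activin list was called by edgeR, with 8 at an unadjusted p under 0.05 and 3 higher and 5 lower by DESeq2.

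Several of the genes that rose are epithelial. Krt19 and Krt8, keratins of simple epithelium that also mark alveolar cells in transition, were called together. Krt8 had 114, 94.4 and 104 CPM in the second block and 213 and 273 CPM in the third (log2 1.22, SE 0.13, edgeR adjusted p = 0.0242). Krt19 had 60.6, 42.0 and 65.3 CPM against 145 and 174 CPM (log2 1.51, SE 0.19, adjusted p = 0.0341). Both third-block suspensions exceeded every second-block one for both keratins, as their choice required. They were the 2 higher calls among 18 genes of injured and transitional epithelium (median 0.50, 11 above without overlap against 14.9% of all tested genes), and Mdk was the 1 lower call. Lmo7, an actin and junction adaptor, had 53.2, 46.0 and 50.8 CPM against 126 and 136 CPM (log2 1.39, SE 0.11, adjusted p = 0.0110).

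Of 8 markers of alveolar type 1 cells 3 rose (0.234% of all tested genes were called higher), and all 8 lay above without overlap, against 14.9% of all tested genes. Ager, the receptor for advanced glycation end products and a type 1 cell marker, had 208, 203 and 163 CPM in the second block and 395 and 374 CPM in the third (log2 1.01, SE 0.11, edgeR adjusted p = 0.0278). Aqp5, a water channel, and Clic5, a chloride channel family protein, rose by 0.74 and 0.83 on the log2 scale. Cldn18, a tight junction protein of alveolar epithelium, had 219, 207 and 177 CPM against 354 and 401 CPM (log2 0.91, adjusted p = 0.0297). Of 16 tested surfactant and alveolar type 2 genes, 1 rose (median 0.44). It was Sftpb, surfactant protein B, at 1387, 1463 and 1203 CPM against 1925 and 2054 CPM (log2 0.56, edgeR adjusted p = 0.0492). Sftpc, surfactant protein C, had the same log2 difference of 0.56 and missed the threshold (edgeR adjusted p = 0.0899).

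Most of the other genes among the 15 largest called rises were also led by epithelial cells. Gsta3 was led by mesenchymal and Kank3 by endothelial cells. Sec14l3, a lipid-binding protein of airway epithelium, had 123, 105 and 141 CPM in the second block and 251 and 246 CPM in the third (log2 1.01, edgeR adjusted p = 0.0313). Gsta3, a glutathione transferase, had 61.0, 40.3 and 53.3 CPM against 127 and 111 CPM (log2 1.20, adjusted p = 0.0446). Gprc5a, an orphan receptor of lung epithelium, had 62.8, 50.5 and 48.4 CPM against 113 and 121 CPM (log2 1.12, adjusted p = 0.0297). Mal, Slc6a14, S100a14, Sult1a1, Myh14, Selenbp1 and Kank3 completed the 15 largest called rises, with log2 differences of 0.86 for Kank3 to 1.29 for Mal. Plvap, a protein of endothelial fenestrae and caveolae, was the 1 call among 18 vascular genes (median 0.23), at 167, 162 and 158 CPM against 247 and 263 CPM (log2 0.65, adjusted p = 0.0297). Mt2, a metallothionein that binds zinc and copper, was the 1 call among 16 iron, metal and oxidative stress genes (median -0.42), at 1069, 826 and 1011 CPM against 1814 and 1549 CPM (log2 0.80, adjusted p = 0.0452).

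**Figure D2:**
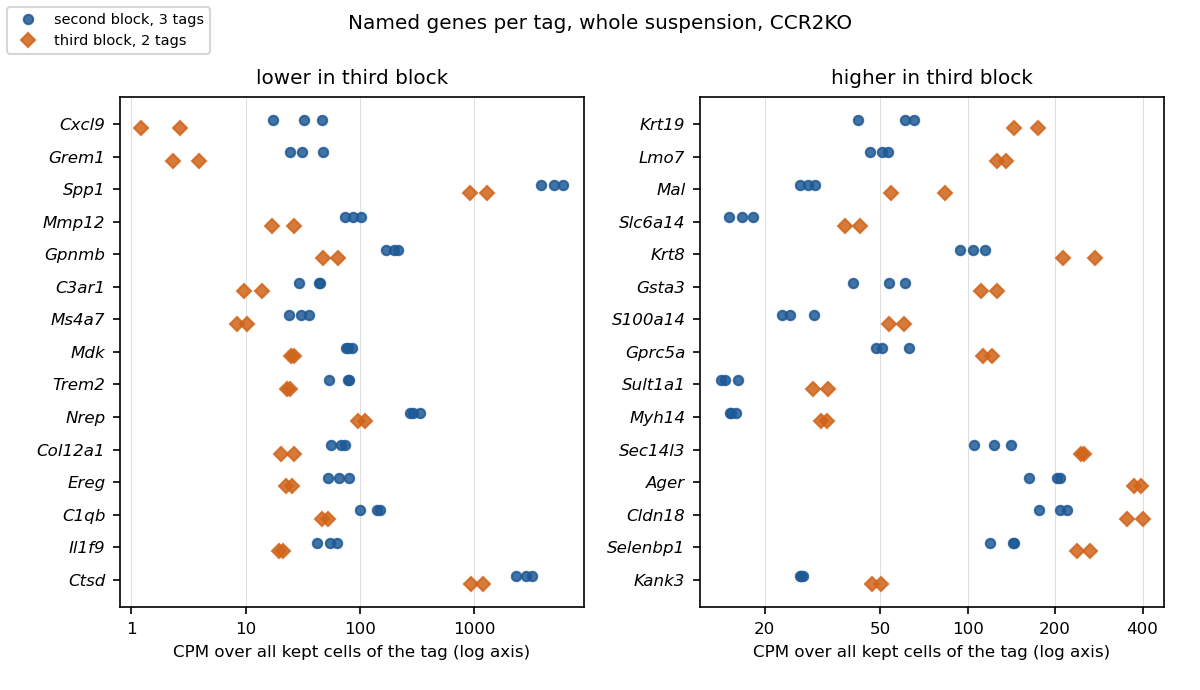
Summed reads in CPM (log axis) of the 15 genes with the largest called falls and the 15 with the largest called rises, 1 point per suspension, in separate panels. Only called genes without overlap between the blocks could be chosen, so the 2 third-block points lie apart from the 3 second-block points by design. They range from Cxcl9 (17.5 to 47.0 against 1.22 and 2.65 CPM) to Kank3 (26.5 to 27.0 against 46.8 and 50.4 CPM).

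Other fixed lists held few or no calls. Mmp12 and Mmp8, the collagenase of neutrophils, were the 2 of 14 metalloproteinases and inhibitors that fell, Mmp8 by 0.93 on the log2 scale. Saa3, an acute phase protein, had 2998, 3806 and 5115 CPM in the second block and 2495 and 1811 CPM in the third and did not pass (log2 -0.88, edgeR adjusted p = 0.148). None of the 13 interleukin-1 and inflammasome genes (median -0.38, 6 at an unadjusted p under 0.05, 4 by DESeq2) or 20 type I interferon response genes (median -0.40, 5 unadjusted, 2 by DESeq2) was called by edgeR. The same was so for the 22 cell cycle genes (median -0.01, 2 unadjusted, 0 by DESeq2), the 16 ribosomal protein genes (median -0.01, 0 unadjusted, 0 by DESeq2) and the 10 mitochondrially encoded genes (median 0.10, 4 unadjusted, 0 by DESeq2). Of 11 genes of MHC class II presentation, which show antigen to CD4 T cells, Ctss was the 1 that fell (median -0.25), while Cd74 had 1441, 1416 and 1319 CPM against 1218 and 1397 CPM. Trbc2, a constant chain of the T cell receptor, was the 1 of 9 T cell markers that fell, at 37.3, 41.9 and 43.4 CPM against 19.1 and 20.4 CPM (log2 -1.05, adjusted p = 0.0366).

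**Figure D3:**
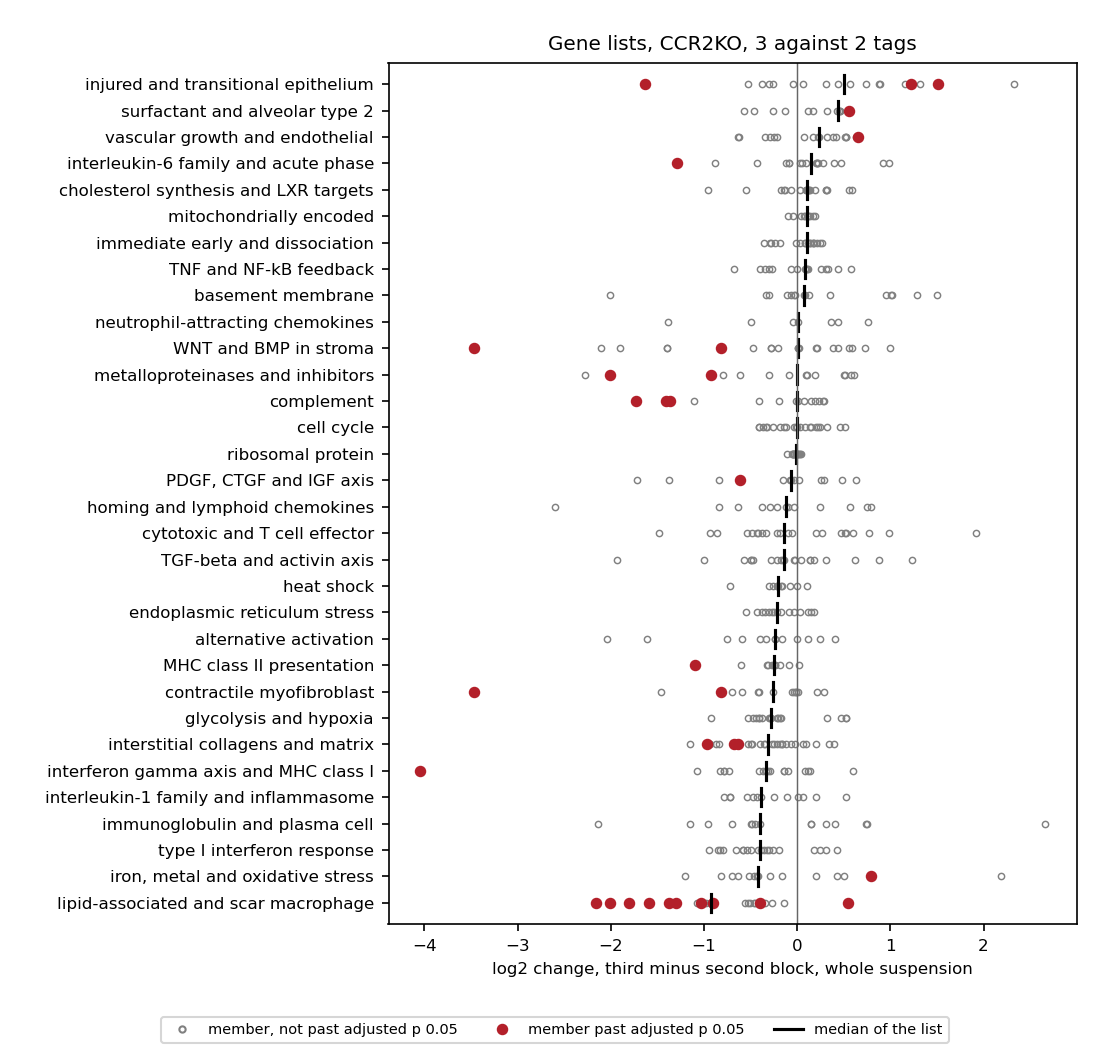
Log2 difference (the third minus the second block) of each tested member of 32 fixed gene lists, 1 point per gene, red where the edgeR adjusted p was under 0.05, with a black bar at the list's median. The red points on the left gather in the lipid-associated and scar macrophage list (9 of 22, median -0.92); the red blood cell list is left out.

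Reads of the named genes were then traced to classes of cells. In the second block scar-type macrophages held 31.5% of Spp1 reads, 51.3% of Mmp12 reads, 33.3% of Gpnmb reads and 28.8% of Ctsd reads, and in the third block 7.1%, 0.2%, 10.3% and 7.1%. Alveolar macrophages held 13.5% of Spp1 reads in the second block and 30.6% in the third, and 22.7% and 45.5% of Ctsd reads. C1qb stayed mainly with interstitial macrophages, at 53.0% and 55.7% of its reads. Activated fibroblasts held 38.4% of Nrep reads and 36.7% of Col1a1 reads in the second block, against 12.1% and 9.5% in the third, but 61.2% and 52.0% of Grem1 reads. Type 1 cells went from 10.1% to 26.9% of Krt8 reads and from 18.6% to 33.3% of Krt19 reads, while type 2 cells went from 59.0% to 38.1% of Krt8 reads. Alveolar fibroblasts held 24.7% and 46.0% of Gsta3 reads. A single read says little for Spp1: 34.8% of B cells, which should lack the gene, had a Spp1 read in the second block and 34.0% in the third. Shares of cells with a read are therefore not used as expression; the source of these reads was not tested.

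**Figure D4:**
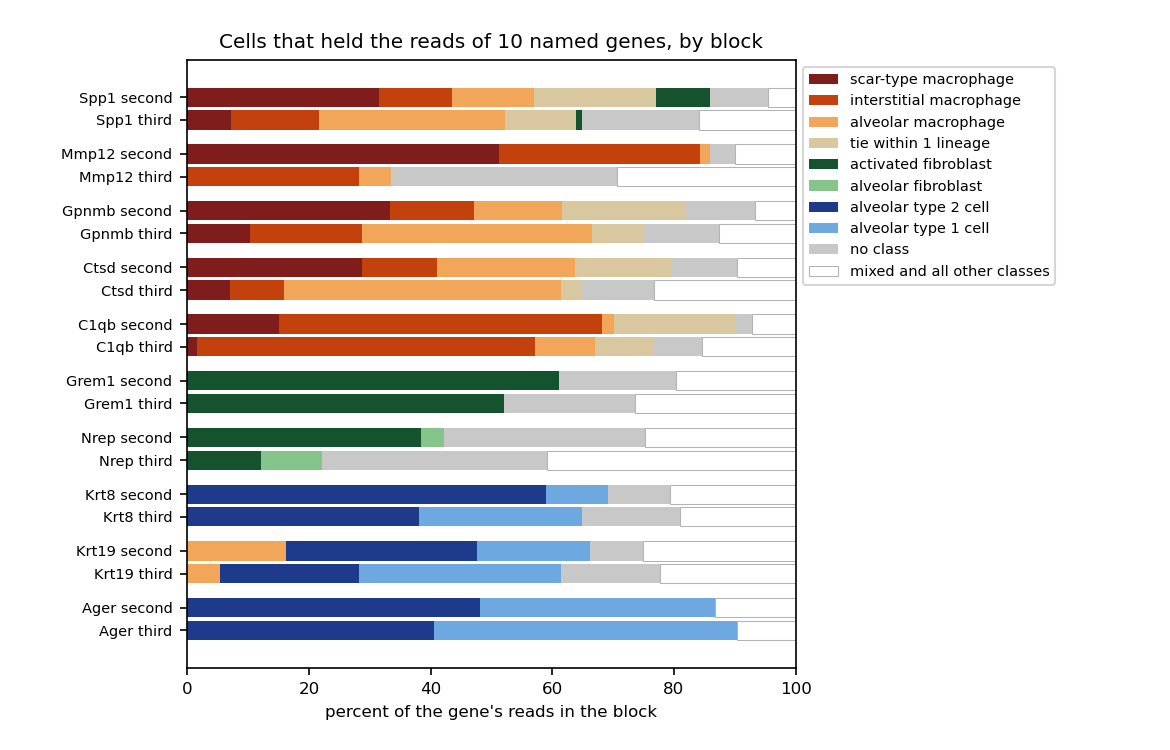
Percent of each gene's reads found in each cell class, in the second and in the third block, for 10 genes; classes under 5% in both blocks fall into the white part. The scar-type macrophage part shrinks for Spp1 (31.5% to 7.1%) and Mmp12 (51.3% to 0.2%), and the alveolar type 1 part grows for Krt8 (10.1% to 26.9%).

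When the cells of scar-type macrophages, activated fibroblasts and T cells were taken out before summing, a step added after the results were seen, 14 of the 104 genes passed in edgeR and no others. The 10 that fell were Ctsb, Gpnmb, Mdk, Mpeg1, Ms4a6d, Nrep, Pld3, Psap, Spp1 and Tyrobp, and the 4 that rose were Lmo7, Ly6a, Slc5a7 and Wdr92. Spp1 then had a log2 difference of -1.71 (adjusted p = 0.0327) in place of -2.16, and Mmp12 of -1.17 (edgeR adjusted p = 0.145) in place of -2.01. Cells tied between classes of 1 lineage, mixed cells and cells of no class stayed in these sums. Tied cells held 20.0% of Spp1 reads and 20.5% of Gpnmb reads in the second block, against 11.6% and 8.5% in the third. The part of such cells in the remaining differences was not tested. Grem1 kept a log2 difference of -3.35 but lost its call (edgeR adjusted p = 0.108). Among genes that had risen, Krt8 was at 1.05 and Ager at 0.83 (edgeR adjusted p = 0.0602 and 0.0671).

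Sums within a class ask whether its cells differed in RNA, apart from their number. Of 8 classes tested, alveolar macrophages alone held calls, 3 of 10310 genes (0.0291%), all lower in the third block. Lyz2, macrophage lysozyme, was at 20769, 18285 and 26185 CPM within alveolar macrophages of the second block and 7594 and 8229 CPM in the third, a 2.75-fold difference (log2 -1.46, SE 0.14, edgeR adjusted p = 0.00701). Lyz1, its near-identical neighbour with which it may share reads, had 10279, 9202 and 13517 CPM against 3915 and 4463 CPM (log2 -1.39, SE 0.16, adjusted p = 0.0183). Ccl6 had 11787, 11873 and 12129 CPM against 6670 and 7067 CPM (log2 -0.80, SE 0.10, adjusted p = 0.0187). For all 3 genes every second-block suspension lay well above both of the third. These sums rest on 28 to 43 alveolar macrophages per suspension. The number of calls was 0 without second block replicate 1, 1 without replicate 2 and 2 without replicate 3, all among these genes. The calls for these genes did not hold in the fits with a lone third-block suspension. Spp1 within this class had 6242, 12398 and 20323 CPM against 4198 and 5694 CPM and did not pass (log2 -1.39, edgeR adjusted p = 0.673). DESeq2 called 72 genes in this class, 18 higher and 54 lower.

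The MHC class II list had a median above 0 within neutrophils (1.38), alveolar macrophages (1.33) and interstitial macrophages (1.30), though no single gene passed. In neutrophils all 7 tested genes were above 0 and 4 lay above without overlap, against 9.99% of that class's genes. In alveolar macrophages Cd74, the class II chaperone, was at 32.5, 46.0 and 14.9 CPM in the second block and 154 and 210 CPM in the third (log2 2.54, edgeR adjusted p = 0.230). In interstitial macrophages it was at 1433, 1658 and 1253 CPM against 3988 and 3031 CPM (log2 1.28, edgeR adjusted p = 0.550). H2-Aa, a class II chain, had 283, 438 and 425 CPM against 1146 and 1140 CPM in interstitial macrophages (log2 1.58, adjusted p = 0.550). In that class 6 of 9 class II genes lay above without overlap (median 1.30), against 9.16% of its tested genes. In interstitial macrophages 0 of 10107 genes (0%) passed in edgeR, with 913 at an unadjusted p under 0.05 and 224 by DESeq2, on 16 to 52 cells per suspension. In general capillary endothelium the list pointed the other way, with 8 of 9 genes below 0 (median -0.72) and Cd74 at 1035, 1083 and 637 CPM against 461 and 534 CPM. Whether the list's difference differs between the classes was not tested. The immunoglobulin and plasma cell list also had a median above 0 in alveolar macrophages (2.87, 5 tested) and interstitial macrophages (1.99, 9 tested). In neutrophils its median was 0.12 (7 tested). Whether reads from other cells entered these sums was not tested.

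In alveolar type 2 cells 0 of 13716 genes (0%) passed in edgeR, with 786 at an unadjusted p under 0.05 and 56 by DESeq2. The keratins that rose in the whole suspension were not called here: Krt8 had 535, 366 and 478 CPM in the second block and 558 and 485 CPM in the third (log2 0.18, SE 0.18, edgeR adjusted p = 0.999). Lmo7 had 146, 127 and 130 CPM against 222 and 215 CPM (log2 0.70, edgeR adjusted p = 0.863). Of 22 cell cycle genes 20 were above 0 and 11 lay above without overlap (median 0.76), against 10.9% of this class's tested genes. Mcm3, a subunit of the helicase that opens DNA for replication, had 17.6, 13.3 and 21.3 CPM against 41.0 and 57.0 CPM (log2 1.49, edgeR adjusted p = 0.863). Mki67, the proliferation marker, had reads in 11, 9 and 20 type 2 cells against 19 and 23. Its level in this class was 27.0, 17.1 and 51.5 CPM against 81.5 and 40.7 CPM, so the blocks overlapped. Of 20 type I interferon response genes 15 were below 0 (median -0.93), and 8 lay below without overlap, against 11.1% of the class's genes.

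In general capillary endothelium, the bulk of the capillary wall, 0 of 11570 genes (0%) passed in edgeR, with 674 at an unadjusted p under 0.05 and 130 by DESeq2. Cell cycle genes lay the other way from type 2 cells, with 20 of 22 below 0 and 11 below without overlap (median -2.04), against 11.3% of this class's tested genes. Stmn1, a microtubule regulator of dividing cells, had 490, 427 and 637 CPM in the second block and 283 and 221 CPM in the third (log2 -1.04, edgeR adjusted p = 0.713). These values rest on few cells: Top2a, a DNA topoisomerase of dividing cells, had reads in 3, 8 and 7 capillary cells against 5 and 3. All 11 heat shock genes, which are known to respond to tissue handling, were below 0 in this class (median -0.55), and 8 lay below without overlap. Hsph1, a chaperone, had 168, 157 and 92.8 CPM against 30.0 and 38.3 CPM (edgeR adjusted p = 0.675). Heat shock genes were also mostly below 0 in alveolar type 2 cells (10 of 11, median -0.44) and alveolar fibroblasts (9 of 11, median -0.39). They were mostly above 0 in alveolar macrophages (10 of 11, median 0.33) and neutrophils (7 of 10, median 0.34).

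In alveolar fibroblasts 0 of 11714 genes (0%) passed in edgeR, with 488 at an unadjusted p under 0.05 and 13 by DESeq2. Col1a1 had 1125, 1204 and 1477 CPM within this class in the second block and 1068 and 1077 CPM in the third (log2 -0.24, edgeR adjusted p = 1.00), beside -0.97 in the whole suspension. Ltbp2, a matrix protein of elastic microfibrils, had 262, 234 and 244 CPM against 110 and 102 CPM (log2 -1.22), and Gsta3 had 463, 287 and 244 CPM against 723 and 678 CPM (log2 1.08). Both had non-overlapping suspensions without passing, as did 8.49% of the class's genes below and 10.8% above. In neutrophils 0 of 7267 genes (0%) passed in edgeR, with 371 at an unadjusted p under 0.05 and 46 by DESeq2. Il1f9 had 1479, 1745 and 1681 CPM in neutrophils of the second block and 898 and 575 CPM in the third (log2 -1.15, edgeR adjusted p = 0.869), below without overlap like 10.7% of that class's genes.

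Lymphocytes held no call within their classes. In T cells 0 of 7674 genes (0%) passed in edgeR, with 607 at an unadjusted p under 0.05 and 391 by DESeq2, on 19 to 62 cells per suspension. Ccl5, a chemokine of effector T cells, had 585, 845 and 626 CPM within T cells of the second block and 1697 and 2458 CPM in the third (log2 1.60, SE 0.27, edgeR adjusted p = 0.580). Gzmb, the cytotoxic protease granzyme B, had 214, 300 and 174 CPM against 1438 and 421 CPM (log2 2.02, adjusted p = 0.580). Both third-block suspensions lay above the second block for both genes, as they did for 6.68% of the class's genes. Of the 20 tested genes of the cytotoxic and T cell effector list, 12 were above 0 and 8 below within T cells (median 0.50). In B cells 0 of 6709 genes (0%) passed in edgeR, with 221 at an unadjusted p under 0.05 and 91 by DESeq2.

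**Figure D5:**
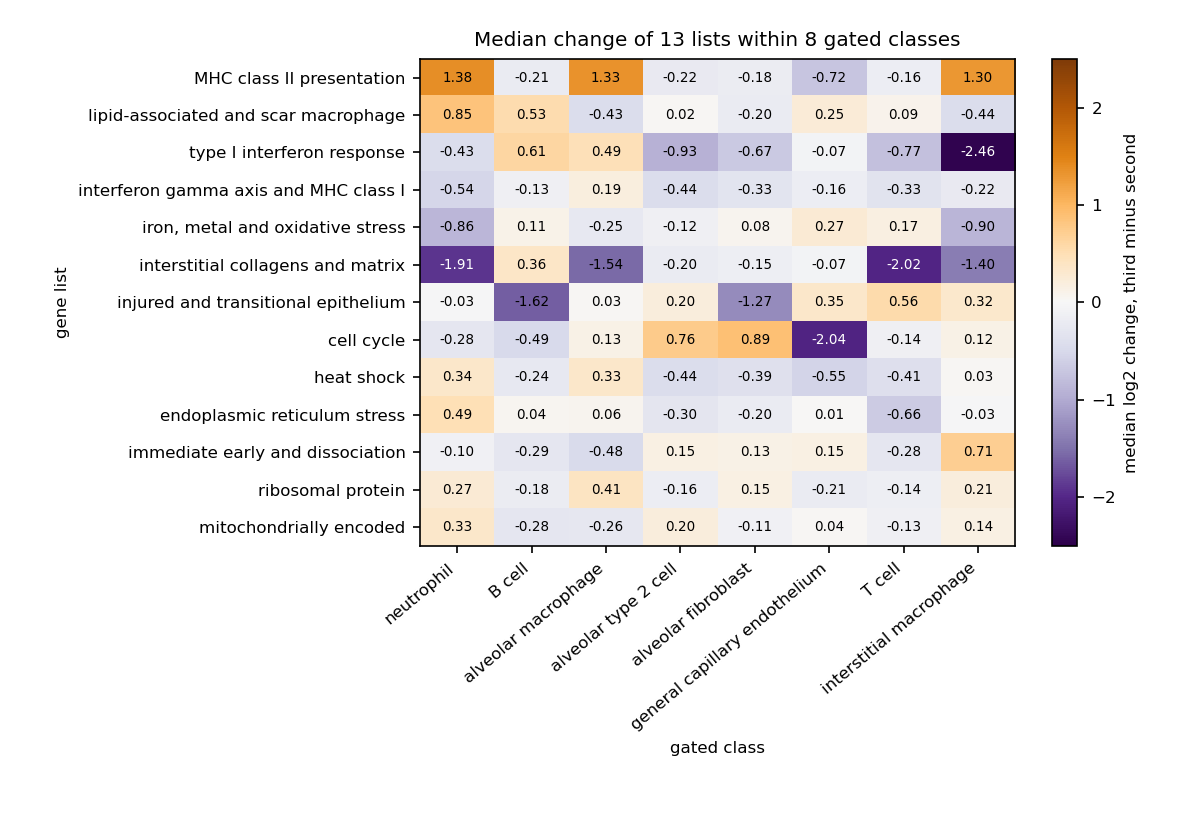
Heat map of the median log2 difference (the third minus the second block) of 13 gene lists (rows) within 8 cell classes (columns), with orange above and purple below 0. MHC class II stands above 0 in neutrophils, alveolar and interstitial macrophages (1.38, 1.33 and 1.30) and below 0 in general capillary endothelium (-0.72), and cell cycle genes stand at 0.76 in type 2 cells and -2.04 in general capillary endothelium.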

How the data were processed

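Single-cell gene expression of pooled, hashtagged lung cells was deposited as counts of reads per gene and cell column by the authors; the submitters' processing notes name GRCm38, Bowtie2 2.4.2, cutadapt 2.10 and R 3.6.3 with no role or order, and the counting rule and annotation are not given in the sources used here. The deposited counts are reads, not molecules: among entries above 0 in the kept cells the median was 12 reads, and 20.3% held a single read. Columns named as doublets (531) or by neither a hashtag nor a doublet (2), 533 in all, were not used. No doublet caller was run, so doublets within a hashtag remain, and cells positive for more than 1 lineage (3.61% and 3.26% of cells in the 2 blocks) entered no class.

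Kept cells (at least 200 genes, at most 25% mitochondrial reads) were summed per hashtag and tested with edgeR 4.0.16 in R 4.3.3 (filterByExpr, TMM, quasi-likelihood test, Benjamini-Hochberg adjustment, threshold 0.05, 3 against 2 suspensions). Adjusted p-values without another name are from edgeR. CPM of single genes were scaled by the TMM factors, and within a class they were taken over the reads of that class. The correlations, Ccr2, Spp1 within scar-type macrophages and Mki67 within alveolar type 2 cells used CPM without TMM factors. Class cell numbers were tested the same way over the total of kept cells. Classes used 195 markers of 27 types; a cell of several classes in 1 lineage went to the class with the largest share of markers positive, and ties entered none. Sums within a class needed 20 cells per hashtag, or 15 for T cells and interstitial macrophages, a choice made after seeing the data. The 34 gene lists hold 537 genes, 2 of them not in the table of 23426 genes. The result of 1 list is not reported here. Named genes were the 15 largest called changes in each direction with non-overlapping hashtags and a mean of at least 20 CPM, called list members and up to 3 of the most abundant members of a list; within a class, the 8 largest in each direction at 50 CPM or more. DESeq2 1.42.0, RLE factors, all 8 CCR2KO hashtags in 1 fit, other gates and filters, cells thinned to 5000 reads and each hashtag left out were alternatives. Python 3.11.15, numpy 2.4.6, pandas 2.3.3, scipy 1.17.1 and matplotlib 3.10.9 did the rest, and the test was tested on simulated data. The members and lists were chosen with earlier results of these data known. Promoter sequences are from RefSeq on GRCm38.p6, matched by symbol.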

Additional observations from a re-analysis of the deposited data

How the results depend on the processing

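Over all named results, 612 alternative values kept their direction and side of the threshold, 328 lost the threshold, 4 gained it and 26 changed sign, all of them shares of classes that were not called. Nonclassical monocytes (0.03) changed to -0.24 at 1 read per 10000, -0.27 with 2 positive markers, -0.14 at 5 reads per 10000, -0.0291 over cells of 1 class, -0.232 with thinned cells and -0.0338 with the stricter cell filter. Alveolar macrophages (0.07) changed to -0.0102 with 2 positive markers, -0.18 at 5 reads per 10000 and -0.12 with thinned cells, B cells (0.27) to -0.0228 with 2 positive markers, aerocyte endothelium (0.03) to -0.0236 over cells of 1 class and mesothelial cells (0.15) to -0.0121 with thinned cells. With 1 hashtag left out the log2 difference ranged from -0.32 to 0.11 for neutrophils, -0.47 to 0.37 for nonclassical monocytes, -0.15 to 0.25 for alveolar macrophages, -0.11 to 0.56 for B cells, -0.0432 to 0.98 for club cells, -0.0926 to 0.16 for aerocyte endothelium, -0.0280 to 0.94 for large vessel endothelium, -0.26 to 0.41 for adventitial fibroblasts and -0.0314 to 0.31 for mesothelial cells. The number of genes called in the whole suspension was 1257 with DESeq2 (519 higher, 738 lower), 227 with all 8 CCR2KO hashtags (76 higher, 151 lower), 53 with cells of at least 500 genes and at most 10% mitochondrial reads, and 14 without 3 classes that fell, an alternative chosen after seeing the data. It was 118 with thinned cells (39 higher, 79 lower, so 33.1% higher against 45.2%), of which 51 were among the 104, and it ranged from 0 to 78 with 1 hashtag left out. The number of class shares called ranged from 3 to 7 with 1 hashtag left out. Alveolar type 2 cells passed with 2 positive markers or every tagged cell (adjusted p = 0.0250 with the former), neutrophils with 2 positive markers (log2 -0.52, adjusted p = 0.0305) and conventional dendritic cells without the third block's replicate 2 (log2 -2.68, adjusted p = 0.0416). Within classes DESeq2 called 46 genes in neutrophils, 91 in B cells, 72 in alveolar macrophages, 56 in alveolar type 2 cells, 13 in alveolar fibroblasts, 130 in general capillary endothelium, 391 in T cells and 224 in interstitial macrophages. Without a filter on low counts, edgeR called 14, 2, 42, 16, 14, 20, 11 and 54 genes in these classes, in the same order. With 1 hashtag left out the calls ranged from 0 to 3 in neutrophils, 0 to 2 in alveolar macrophages, 0 to 3 in alveolar type 2 cells, 0 to 2 in general capillary endothelium and 0 to 4 in interstitial macrophages. The cause was not tested for any of these, beyond the smaller number of cells or hashtags where some were left out; with a lone third-block hashtag its spread is taken to be that of the second block. No paired analysis was possible because the hashtags carry no replicate numbers that the blocks share.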

Other observations

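The first block of the same genotype, 3 further hashtags with no day in the labels, is given as description only. Activated fibroblasts were 2.44%, 2.41% and 1.68% of its cells and scar-type macrophages 1.15%, 1.99% and 1.11%. T cells were 4.03%, 4.40% and 4.84% there, and alveolar macrophages 4.13%, 3.67% and 3.00%. Alveolar type 1 cells were 0.896%, 1.73% and 0.632%.

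Within the few scar-type cells, Spp1, which is a gate gene of the class, was at 28121, 37303 and 29505 CPM in the second block and 4244 and 10831 CPM in the third, on 29, 33 and 35 cells against 3 and 7. Within alveolar macrophages all 16 ribosomal protein genes were above 0 (median log2 difference 0.41), and 13 lay above without overlap, against 12.1% of that class's genes. In alveolar fibroblasts all 14 tested cell cycle genes were above 0 (median 0.89), and 5 lay above without overlap, against 10.8% of that class's genes. These values rest on few cells: Mki67 had reads in 0, 3 and 4 alveolar fibroblasts against 5 and 1, and Top2a in 1, 0 and 4 against 3 and 3.

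Some calls rest on very few cells and fall below the abundance set for named genes; they are given here because of their size, after their values were seen. Slc5a7, a choline transporter, had 0.0463, 0.0132 and 0.0237 CPM in the second block and 6.10 and 7.05 CPM in the third (edgeR adjusted p = 0.0110), from 3, 1 and 2 cells against 4 and 3. Snap25, a synaptic vesicle fusion protein, had 0.197, 0.566 and 0.639 CPM against 7.60 and 6.64 CPM (edgeR adjusted p = 0.0430), from 12, 9 and 9 cells against 14 and 8. The globin Hbb-bs was at 156 and 166 CPM in second block replicates 1 and 2, and at 0.853 CPM in replicate 3 and 2.89 and 2.54 CPM in the third block.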
